A study of Mus musculus with 6 samples.

Results

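Olfactory receptor genes of the mouse lie in long arrays on several chromosomes, and 5 of these arrays were examined for CpG methylation in the neonatal neocortex. The arrays were given as fixed intervals of the mm39 genome: chr2:85000000-90000000, chr7:102200000-104900000, chr7:106000000-108600000, chr9:37600000-40400000 and chr17:37400000-38900000. They are called the chr2 cluster, the first and the second chr7 cluster, the chr9 cluster and the chr17 cluster. A CpG belonged to a cluster when it lay in the interval and had at least 10 reads, strands added, in at least 2 samples of each genotype. This gave 1442 CpGs out of 864621 autosomal CpGs that met the same coverage rule, or 0.167%, in intervals that make up 0.608% of the autosomal span. The chr2 cluster held 286, the first chr7 cluster 271, the second chr7 cluster 433, the chr9 cluster 297 and the chr17 cluster 155. The choice used position and coverage only, and no methylation value. CpGs that met the coverage rule are called covered CpGs below, inside and outside the clusters.

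The material was neocortex at postnatal day 5 from wild-type (WT) mice and from mice labelled Chd8+/-, heterozygous for the gene of the chromatin remodeller CHD8, with 3 samples of each. The series asks how the DNA methylome of the neocortex differs in this model of a human neurodevelopmental disorder. Methylation was read by reduced representation bisulfite sequencing (RRBS), which sequences short MspI fragments that begin and end at CCGG, so CpGs far from a CCGG site are not seen. The labels do not give strain, sex, the nature of the Chd8 allele or whether each sample is a separate animal. The p-values therefore measure the spread between these samples, which may be partly technical. The tables hold no expression, so the tissue was not checked against marker genes.

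Olfactory receptors are G protein-coupled receptors of the sensory neurons of the nose, and each mature sensory neuron expresses a single receptor gene from a single allele. The genes have short coding regions and arose by repeated local duplication, so an array holds many receptor genes and pseudogenes in a row. Most receptor genes are silent outside the nose, and their promoters are poor in CpGs. The clusters are called olfactory receptor clusters from the intervals given. The gene table at hand follows GRCm38 and the methylation tables mm39, so the genes inside the intervals, and the place of a CpG in a promoter, exon or intron, were not analysed here.

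Promoters of such arrays hold few CpGs and few CCGG sites, the sites at which RRBS fragments begin. The gene table (RefSeq, GRCm38.p6) holds the longest run of olfactory receptor genes on each of the chromosomes 2, 7, 9 and 17 and the next longest run on chromosome 7, with at most 5 other genes between neighbouring receptor genes. These 5 runs hold 623 receptor genes, of which 144 are pseudogenes, and 100 other genes lie between them. RefSeq promoter sequences, from 250 bases before to 50 bases after the gene's start, were at hand for 403 of the receptor genes as 405 promoters. They held a median of 1 CpG, and 35.6% held none. The letters CCGG, which read the same on both strands and contain a CG, were found in 3.95% of them, against 56.3% of the 8580 other promoters on the same chromosomes and 52.8% of all 32851 promoters. Their median GC content was 33.7%, against 54.0% in the other promoters of these chromosomes. The first 5 sequences below stand for the usual case, 1 from each run, each with the median CpG number and no CCGG. The sixth, Olfr976, has the most CpGs among the receptor promoters of these runs that do contain CCGG, and holds 8. Capitals mark each CG, and CCGG where it occurs; sequences run from 5′ to 3′ along the gene's strand.
Olfr73: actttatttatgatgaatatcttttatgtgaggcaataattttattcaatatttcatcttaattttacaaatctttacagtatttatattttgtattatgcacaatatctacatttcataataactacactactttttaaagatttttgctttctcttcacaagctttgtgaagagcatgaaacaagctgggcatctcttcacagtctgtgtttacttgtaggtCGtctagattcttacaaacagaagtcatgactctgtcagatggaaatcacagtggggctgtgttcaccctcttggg
Olfr543: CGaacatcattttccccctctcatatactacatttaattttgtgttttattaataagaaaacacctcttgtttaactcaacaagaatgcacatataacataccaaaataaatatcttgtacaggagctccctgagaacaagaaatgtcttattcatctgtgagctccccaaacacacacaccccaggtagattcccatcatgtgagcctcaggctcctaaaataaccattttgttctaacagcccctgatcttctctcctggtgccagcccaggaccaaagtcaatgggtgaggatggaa
Olfr467: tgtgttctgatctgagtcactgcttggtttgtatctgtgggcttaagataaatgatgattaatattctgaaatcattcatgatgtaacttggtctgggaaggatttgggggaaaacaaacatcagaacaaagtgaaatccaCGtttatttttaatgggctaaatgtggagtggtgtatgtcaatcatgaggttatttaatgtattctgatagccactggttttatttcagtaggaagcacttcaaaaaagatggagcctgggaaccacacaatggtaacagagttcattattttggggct
Olfr25: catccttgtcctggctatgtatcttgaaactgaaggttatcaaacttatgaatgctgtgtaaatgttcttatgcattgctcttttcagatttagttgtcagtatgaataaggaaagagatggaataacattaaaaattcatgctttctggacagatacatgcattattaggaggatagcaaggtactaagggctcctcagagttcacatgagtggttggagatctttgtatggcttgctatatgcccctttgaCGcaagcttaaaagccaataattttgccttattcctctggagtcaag
Olfr95: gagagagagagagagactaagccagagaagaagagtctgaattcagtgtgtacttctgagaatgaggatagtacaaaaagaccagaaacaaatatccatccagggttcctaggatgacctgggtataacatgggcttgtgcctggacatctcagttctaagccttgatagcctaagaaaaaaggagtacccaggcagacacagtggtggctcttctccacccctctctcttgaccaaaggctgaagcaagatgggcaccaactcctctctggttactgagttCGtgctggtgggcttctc
Olfr976: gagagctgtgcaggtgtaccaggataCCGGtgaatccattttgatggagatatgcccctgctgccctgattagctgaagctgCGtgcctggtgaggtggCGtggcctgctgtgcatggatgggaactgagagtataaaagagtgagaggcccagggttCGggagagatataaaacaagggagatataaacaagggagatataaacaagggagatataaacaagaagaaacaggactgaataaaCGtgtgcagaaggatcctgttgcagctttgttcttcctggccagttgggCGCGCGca
These promoters are shown for their letters alone: none of the methylation values below is assigned to a promoter.

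Coverage summed over listed cytosines ran from 45498222 to 54818138 reads in the WT libraries and from 32285980 to 39820333 in the Chd8+/- libraries, so the genotypes did not overlap in depth. Chd8+/- replicate 3 stood apart in mean methylation of the comparison CpGs defined below, at 71.3% against 68.7% to 69.3% in the other libraries. Replicate 3 of both genotypes stood apart in the share of coverage on chromosome X, at 2.58% and 2.56% against 1.18% to 1.21% in the other libraries. Results that rest on Chd8+/- replicate 3 are given with and without it. Median coverage of the cluster CpGs was 33 reads per sample, and 28 to 38 reads by cluster, against 33 reads in the comparison CpGs, and the deepest had 374 reads. PCR reads without molecular identifiers are not independent molecules, so limits drawn from read counts cover counting error only.

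All 5 clusters were thinly covered in all 6 samples. In the chr2 cluster, the sparsest, the WT samples had at least 10 reads at 56.2, 53.0 and 52.6 covered CpGs per Mb and the Chd8+/- samples at 54.0, 51.2 and 53.2. The rest of chromosome 2 had 327 to 365 per Mb, a 6.56-fold higher number. The second chr7 cluster was the densest, at 147 to 157 CpGs per Mb, still 2.43-fold below the rest of chromosome 7. The first chr7 cluster had 86.7 to 99.3 per Mb (3.89-fold below its chromosome), the chr9 cluster 95.0 to 102.5 (3.69-fold) and the chr17 cluster 92.0 to 103.3 (4.28-fold). Taken as a pool, the intervals held 87.6 to 95.8 covered CpGs per Mb against 344 to 383 on the rest of the 4 chromosomes. In each cluster and in the pool the exact two-sided sign-flip permutation test over the 6 samples gave p = 0.031, the smallest it can give, and the same value after Benjamini-Hochberg adjustment over these 6 tests. The counted CpGs were chosen by 1 coverage rule over all 6 samples, so the samples could hardly disagree. This p therefore adds nothing to the counts. Long stretches held no covered CpG, though CpGs that missed the coverage rule may lie in them. They measured up to 242 kb in the chr2 cluster, 171 and 129 kb in the chr7 clusters, 196 kb in the chr9 cluster and 125 kb in the chr17 cluster. Besides the 1442 CpGs, another 1295 were listed in at least 1 library without meeting the coverage rule. Their mean level, over the reads they had, was 66.2%, against 68.3% for the CpGs that met it.

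**Figure D1:**
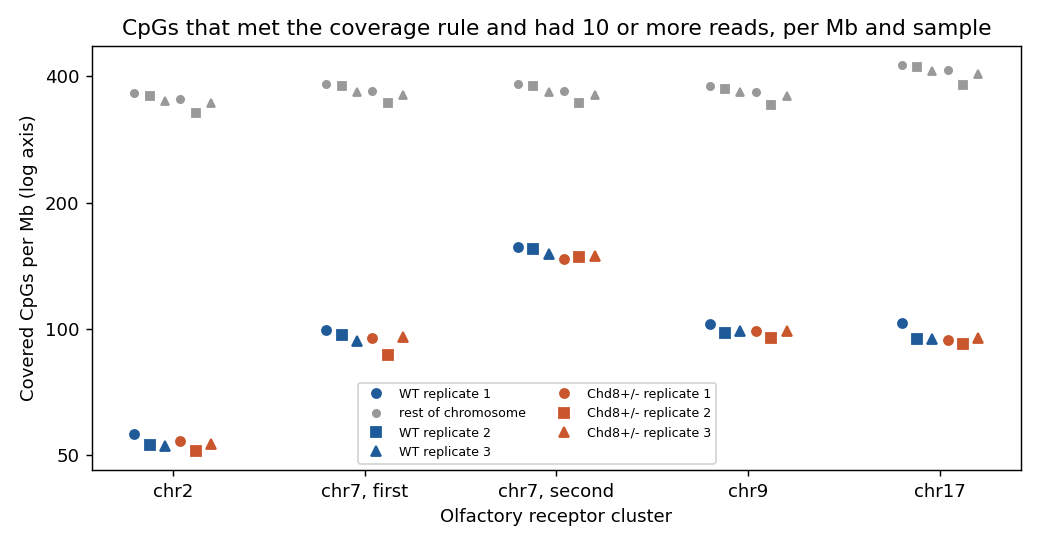
Covered CpGs per Mb with at least 10 reads in the sample (log axis), in each cluster for the 6 samples (WT in blue, Chd8+/- in orange, symbols by replicate) and on the rest of its chromosome in the same samples (grey). The chr2 points sit at 51.2 to 56.2 per Mb and the points of the second chr7 cluster at 147 to 157, and every cluster point lies below the grey points of its chromosome.

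Methylation levels were set against sparse CpGs, those with 1 to 5 listed CpGs in the 500 bp around them, on the same chromosome outside the intervals. There were 94315 such comparison CpGs on the 4 chromosomes. The level of a sample is the unweighted mean over CpGs of the percent of reads with cytosine. The 5 clusters did not share a level. The first chr7 cluster was the most methylated, at 81.1%, 79.9% and 80.8% in WT and 80.4%, 81.0% and 83.2% in Chd8+/-, against 69.0% to 71.6% in the comparison CpGs of chromosome 7. Every sample was above every comparison value there. The chr2 cluster stood at 78.1%, 78.8% and 78.8% in WT and at 77.4%, 77.4% and 78.3% in Chd8+/-, against 67.8% to 70.4%, again without overlap. The chr17 cluster stood at 72.2%, 68.8% and 71.8% in WT and at 74.9%, 74.2% and 76.2% in Chd8+/-, against 69.5% to 72.1%, and here the WT samples overlapped the comparison values. The chr9 cluster was lower, at 64.5%, 64.6% and 62.9% in WT and 61.5%, 64.9% and 63.2% in Chd8+/-, against 69.0% to 71.5%. The second chr7 cluster was the lowest, at 54.4%, 56.5% and 58.5% in WT and 57.4%, 57.9% and 58.0% in Chd8+/-.

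Relative to the comparison CpGs of the same sample, the first chr7 cluster was 11.4 ± 0.308 percentage points higher (SD, n = 6, exact sign-flip permutation p = 0.031, adjusted p = 0.0469 over 6 tests). The chr2 cluster was 9.74 ± 1.14 points higher (SD, n = 6, same exact p and adjusted p). Lower were the second chr7 cluster, with a difference of -12.5 ± 1.57 points, and the chr9 cluster, with -5.97 ± 1.64 points (SD, n = 6, same exact p and adjusted p). The chr17 cluster was 2.80 ± 2.26 points higher and did not pass, with WT replicate 2 at -0.966 points (SD, n = 6, exact p = 0.0625, adjusted p = 0.0750). Pooled over the 5 clusters WT samples averaged 68.6% ± 0.427 and Chd8+/- samples 69.3% ± 0.677 (SD, n = 3), within a point of the comparison CpGs (a difference of -0.393 points, exact permutation p = 0.156 over 6 samples). The pool therefore sat near its comparison level while its clusters lay on both sides of it. Largely the same CpGs were averaged in every library, so these sign-flip tests measure agreement between libraries. They do not test whether a cluster differs from other regions of its chromosome. The same holds for the sign-flip tests by density and of the spread below.

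**Figure D2:**
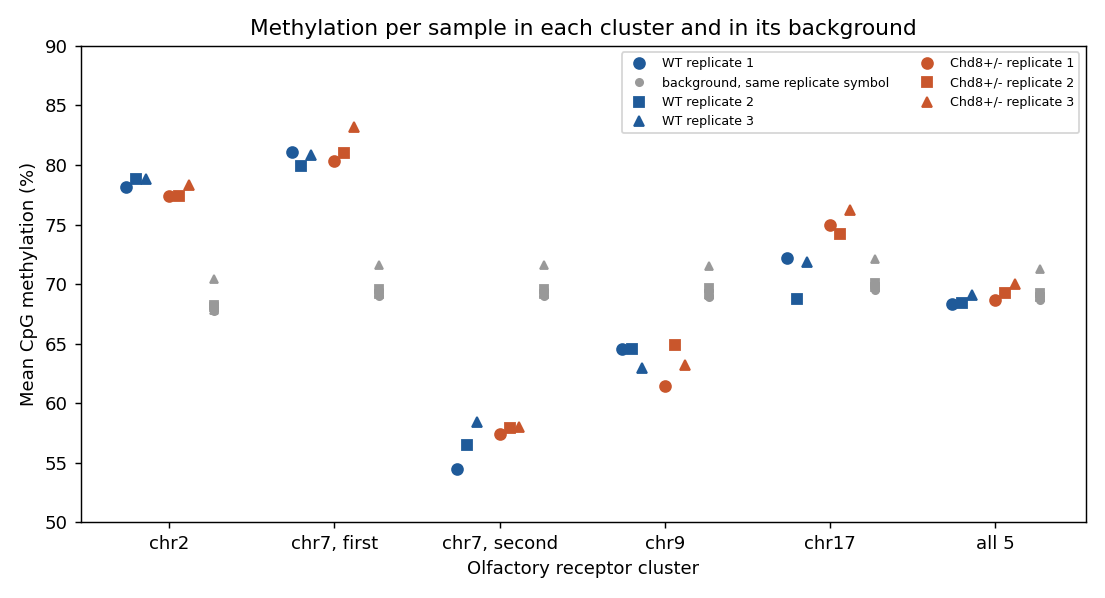
Mean CpG methylation (percent, axis from 50 to 90) per sample in each cluster and in the pool, with the comparison CpGs of the same chromosome (background in the legend) in grey. The first chr7 cluster and the chr2 cluster lie above the grey points, the second chr7 cluster and the chr9 cluster below them, and the highest grey point of each column is Chd8+/- replicate 3.

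The order of the clusters changed when CpG density was held fixed. Density here counts a CpG and all others that at least 1 library listed no more than 250 bp away. The comparison CpGs are sparse by definition, while 60.8% of the cluster CpGs were: 877 of 1442 had 1 to 5 listed CpGs in their 500 bp, 291 had 6 to 10, 136 had 11 to 20 and 138 had over 20. In the second chr7 cluster 119 of 433 CpGs fell in the densest class, and in the chr9 cluster 19 of 297, while the other 3 clusters had 0 there. Among sparse CpGs alone the chr2 cluster stood at 84.8% ± 0.796, the chr17 cluster at 83.0% ± 2.84, the first chr7 cluster at 81.2% ± 0.830 and the second at 78.7% ± 1.19 (SD, n = 6), which are 16.4, 12.7, 11.6 and 9.08 points above the comparison CpGs. The second chr7 cluster thus changed from below to above the comparison level. Sparse CpGs of the chr9 cluster stood at 70.2% ± 1.12 (SD, n = 6), 0.592 points above the comparison CpGs, which did not pass the exact sign-flip permutation test (p = 0.3125). The 4 other clusters gave p = 0.031 by the same exact test. Pooled sparse CpGs were at 79.1% ± 0.664 against 69.3% ± 0.981 (SD, n = 6), a difference of 9.75 points.

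Denser CpGs of the clusters were, with exceptions given below, more methylated than CpGs of the same density elsewhere on these chromosomes. In the class of 11 to 20 listed CpGs, where the rest of the 4 chromosomes averaged 16.2%, the cluster CpGs stood at 51.3% ± 1.9 (SD, n = 6), a gap of 35.0 points. In the class of 6 to 10 they stood at 72.2% ± 1.22 against 53.3% (SD, n = 6). In the class of over 20 they stood at 8.68% against 2.28%. By cluster, the class of 11 to 20 gave 64.1% ± 3.42 in the chr9 cluster (27 CpGs), 59.5% ± 11.8 in the first chr7 cluster (15 CpGs), 54.2% ± 3.10 in the chr17 cluster (49 CpGs) and 45.1% ± 7.22 in the second chr7 cluster (30 CpGs; SD, n = 6). The chr2 cluster was the exception in this class, at 21.7% ± 6.87 against 14.2% (SD, n = 6), with its 15 CpGs in a single 1 kb window and an exact sign-flip permutation p of 0.09375. The chr9 cluster had exceptions in other classes: at 6 to 10 its 47 CpGs stood at 55.5% against 53.7%, with an exact sign-flip permutation p of 0.094, and at over 20 it stood at 0.829% against 0.883%. These classes hold few CpGs, in 1 to 6 windows of 1 kb per cluster for the class of 11 to 20, so neighbouring CpGs of 1 fragment weigh heavily. When each CpG was compared with its own density class, weighted by the number of cluster CpGs in it, the differences were 22.5 points in the chr17 cluster, 19.8 and 11.02 in the chr7 clusters, 15.1 in the chr2 cluster and 5.21 in the chr9 cluster. All 5, and the pool at 13.7 points, gave an exact sign-flip permutation p of 0.031 (n = 6), in a comparison added after the values had been seen.

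**Figure D3:**
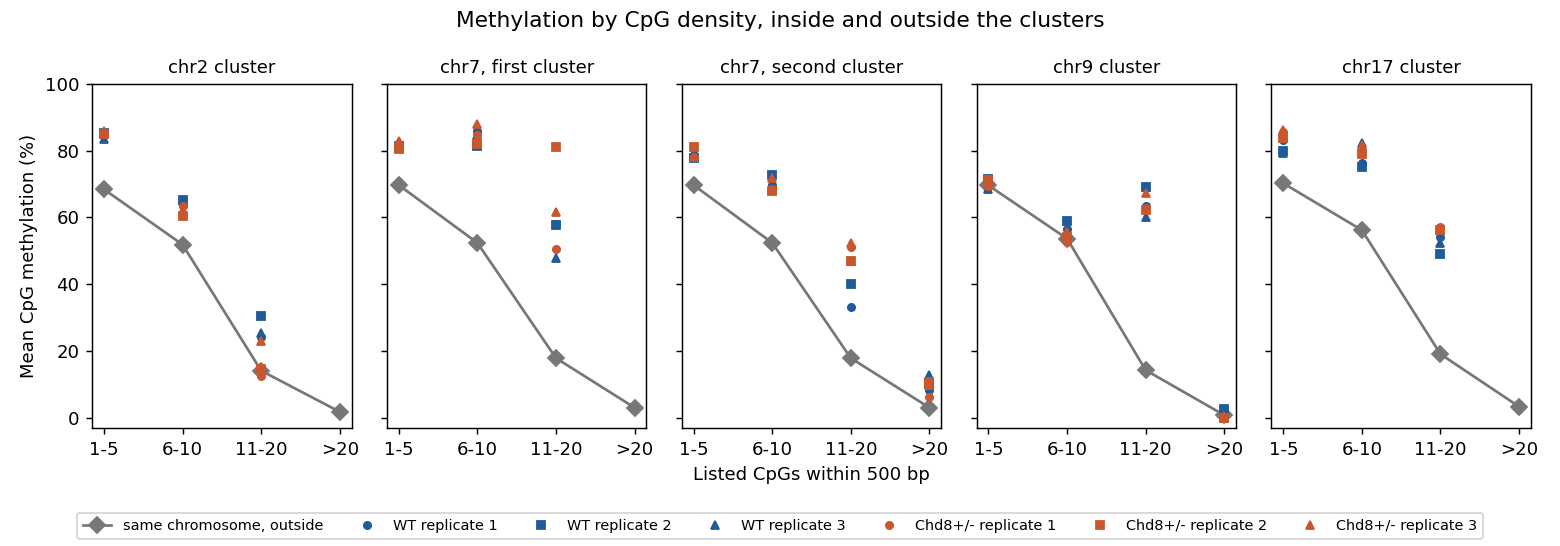
Mean CpG methylation (percent) by the number of listed CpGs in the surrounding 500 bp, for each cluster and sample, with the same class on the rest of the chromosome as a grey line. The grey lines fall from near 70% to under 5%, and most cluster points at 6 to 20 CpGs lie well above them, with the chr2 cluster at 11 to 20 and the chr9 cluster at 1 to 10 and over 20 close to the line.

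Along the intervals, most bins were highly methylated and a few were not. Of 146 bins of 100 kb, 133 held at least 1 covered CpG, and 97 of these (72.9%) had a mean above 80%, with a median of 86.7% over bins. CpGs with a mean level under 20% made up 18.4% of the cluster CpGs (266 of 1442), against 12.4% of the comparison CpGs, and those above 80% made up 60.1% (866) against 53.4%. The 310 CpGs between these limits made up 21.5% against 34.2%. These shares count cluster CpGs of all densities but only sparse comparison CpGs, so they are not matched for density. The CpGs under 20% lay in 23 of the 133 bins. In the second chr7 cluster 104 of 131 lay in 2 bins, chr7:106900001-107000000 at 13.6% and chr7:108500001-108600000 at 14.0%. In the chr17 cluster 26 of 28 lay in chr17:37500001-37600000, at 7.92%, beside bins above 80%. In the chr9 cluster 53 of 67 lay in the last 3 bins, from 40100001 to 40400000. The bins of the second chr7 cluster and the chr17 cluster also held many dense CpGs: 52 of 65 covered CpGs in the first of the 2 chr7 bins had a density over 10, as did 43 of 59 in the other and 21 of 28 in the chr17 bin. In the 3 chr9 bins fewer CpGs were that dense, 9 of 30, 6 of 50 and 15 of 64 in order of position. The lowest chr9 bins lay elsewhere, chr9:39500001-39600000 at 31.6% (12 CpGs) and chr9:37600001-37700000 at 32.8% (9 CpGs). They held no CpG with a density over 10. In the chr2 cluster the lowest bin, chr2:85800001-85900000 at 22.7%, held 8 CpGs under 20% and none with a density over 10.

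Windows of 1 kb showed the unmethylated stretches directly. Of the windows with at least 3 covered CpGs, 2 of 34 in the chr2 cluster averaged under 20%, 4 of 37 and 6 of 49 in the chr7 clusters, 12 of 42 in the chr9 cluster and 2 of 18 in the chr17 cluster. The window chr7:106969001-106970000, with 27 CpGs, was at 0 in 5 samples and at 0.267% in WT replicate 3, over 111 to 702 reads. Its neighbour chr7:106970001-106971000, with 25 CpGs, stood at 1.10%, 1.29% and 0.347% in WT and 1.25%, 1.75% and 1.25% in Chd8+/-. Both genotypes were thus close to 0 across this 2 kb stretch, in an array whose bins were mostly above 80%.

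In the chr17 cluster the window chr17:37581001-37582000 (13 CpGs) was at 0, 0.137% and 0 in WT and at 1.85%, 0 and 0 in Chd8+/-, over 152 to 739 reads. A second one, chr17:37508001-37509000 (11 CpGs), was at 0, 2.48% and 3.23% in WT and at 0 in each Chd8+/- sample, over at most 671 reads; the shallowest Chd8+/- sample, at 0, allows up to 2.83%. In the chr9 cluster the window chr9:40366001-40367000 (11 CpGs) was at 6.45%, 4.55% and 0 in WT and at 0, 0 and 0.741% in Chd8+/-, and the window chr9:39515001-39516000 (6 CpGs) was between 0 and 3.47%. Genotypes overlapped in these 4 windows apart from the second chr17 window, where they met at 0.

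The chr2 cluster had chr2:85850001-85851000 (7 CpGs), between 0 and 4.24% in the 6 samples, and chr2:85028001-85029000 (6 CpGs). The latter stood at 2.32%, 1.11% and 2.48% in WT and at 0.362%, 0.262% and 0.536% in Chd8+/-, over 632 to 793 reads, without overlap. In the first chr7 cluster chr7:102336001-102337000 (4 CpGs) was at 0 in the 5 samples that covered it. The shallowest of them, Chd8+/- replicate 3, had 62 reads added over the CpGs. The window chr7:103867001-103868000 (4 CpGs) was between 0 and 5.13%. None of these 1 kb windows was tested between the genotypes.

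**Figure D4:**
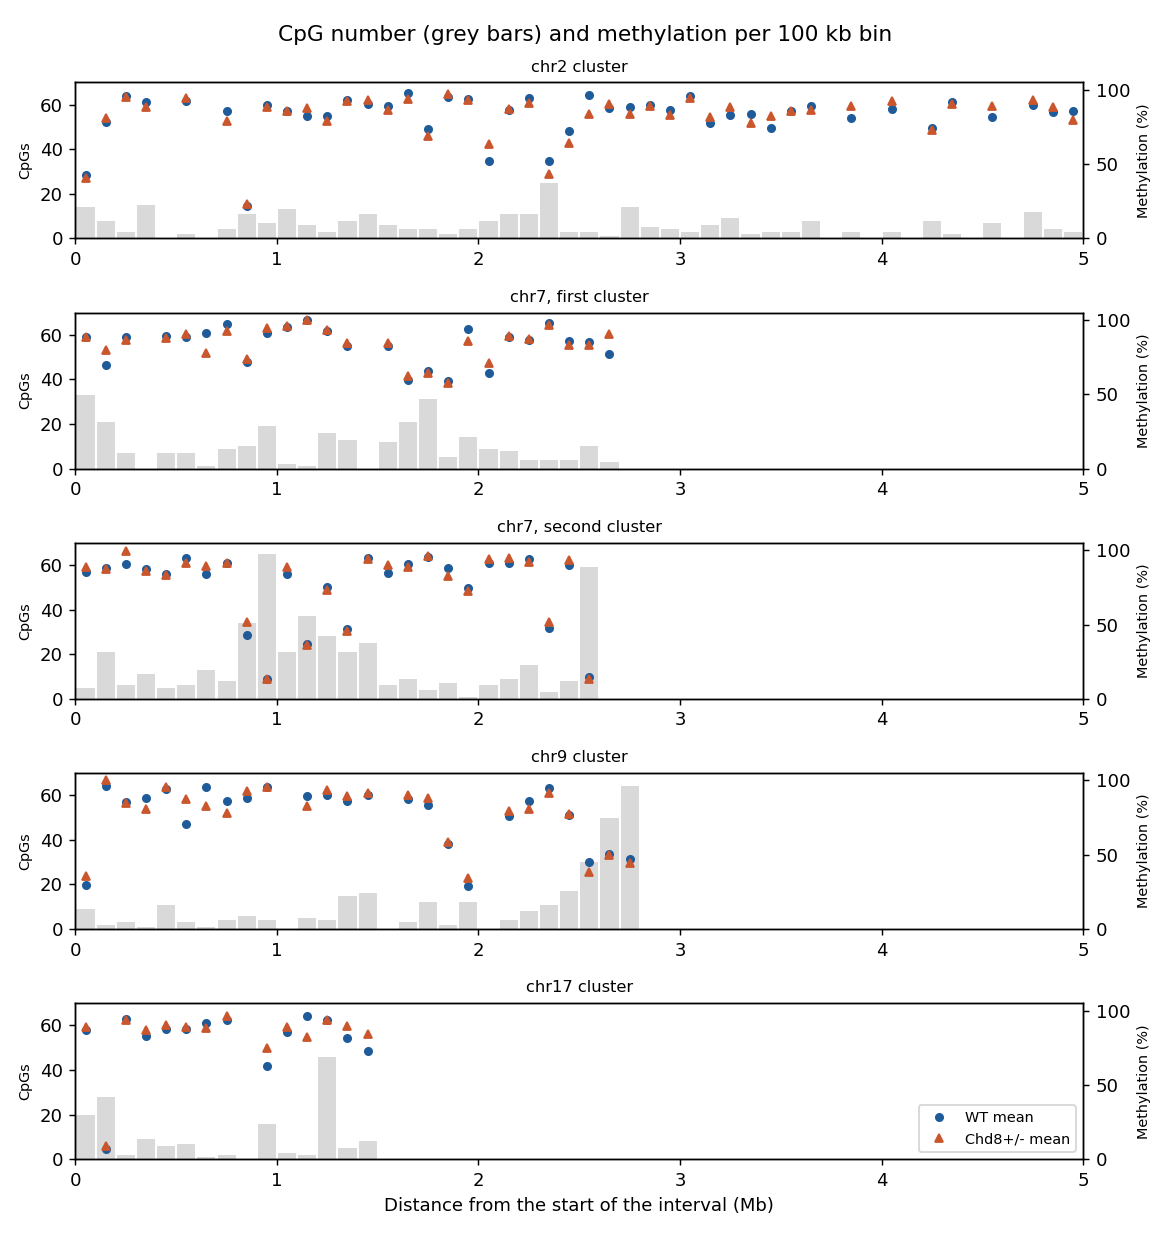
Number of covered CpGs (grey bars, left axis) and mean methylation in WT and Chd8+/- (points, right axis, percent) per 100 kb bin along each cluster, by distance from the start of its interval. Most points lie above 80% in both genotypes, and the lowest bins of the second chr7 cluster and the chr17 cluster sit under tall bars. The lowest bins of the chr9 cluster, at 31.6% and 32.8%, hold 12 and 9 CpGs.

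The spread of levels over CpGs within a sample also separated the clusters. Its SD was 27.9 points in the first chr7 cluster and 29.9 in the chr2 cluster, averaged over the 6 samples, against 33.5 and 33.8 in the comparison CpGs. It was wider in the chr17 cluster at 36.3, the chr9 cluster at 38.7 and the second chr7 cluster at 41.4, against 33.1, 33.0 and 33.5. The differences from the comparison CpGs were -5.59, -3.90, 3.21, 5.72 and 7.89 points, each with an exact sign-flip permutation p of 0.031 (n = 6) and the same adjusted p. Among sparse CpGs alone the SD was narrower than in the comparison CpGs in 4 clusters and 2.22 points wider in the chr9 cluster.

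Scatter between samples of 1 genotype had about the same mean in the pooled clusters and in the comparison CpGs. It is given as the variance of a CpG's level between the samples of a genotype over the variance that its read counts alone would give, so 1 means counting error only. The mean ratio over the pooled cluster CpGs was 5.08 in WT and 5.10 in Chd8+/-, against 5.04 and 5.17 in the comparison CpGs. By cluster it was 5.34 and 4.73 for chr2, 4.93 and 5.06 for the first chr7 cluster, 4.94 and 5.68 for the second, and 5.10 and 5.48 for chr9, in WT and Chd8+/- in turn. The chr17 cluster had 5.12 in WT and 3.66 in Chd8+/-, the lowest of these values, over 108 and 99 CpGs. Its comparison CpGs had 5.04 and 5.14. With variances summed over CpGs before the division, the chr17 cluster had 4.43 and 3.63, against 5.37 and 5.46. Without WT replicate 3 the mean WT ratio of the chr17 cluster was 3.92, close to that of Chd8+/-. Without Chd8+/- replicate 3 the Chd8+/- ratio was 4.43 for chr2, 4.30 and 4.94 for the chr7 clusters, 5.67 for chr9 and 3.90 for chr17. In the pool it was then 4.76, against 5.16 in the comparison CpGs. These ratios are descriptions without a test, since CpGs are not replicates.

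Between the genotypes, the chr17 cluster showed the widest gap. The 3 Chd8+/- samples, at 74.9%, 74.2% and 76.2%, all lay above the 3 WT samples, at 72.2%, 68.8% and 71.8%. The means were 75.1% ± 1.02 and 70.9% ± 1.88 (SD, n = 3), a difference of 4.19 points with a standard error of 1.23. An exact permutation test, two-sided, returned p = 0.1, the smallest that 3 against 3 allows, and 0.4 after Benjamini-Hochberg adjustment over 6 tests, so the design could not pass the threshold. Comparison CpGs of chromosome 17 were 0.710 points higher in Chd8+/-, and the gap of the cluster beyond them was 3.48 points (SE 1.12, exact permutation p = 0.1, adjusted p = 0.3). Without Chd8+/- replicate 3 the cluster differed by 3.64 points, and without replicate 3 of both genotypes by 4.09 points. Depth also separated the genotypes, and its part in this difference was not tested. In comparisons added after the values had been seen, it differed by 3.22 points without the 100 kb window of the smallest p and by 3.68 points without the CpG of the smallest p, and the groups did not overlap in either (exact permutation p = 0.1, n = 3).

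The other clusters differed in both directions, from -0.873 to 1.29 points. The chr2 cluster differed by -0.873 points, Chd8+/- minus WT (77.7% ± 0.516 against 78.6% ± 0.390, SD, n = 3, exact permutation p = 0.2), and Chd8+/- replicate 3 overlapped the WT samples. The chr9 cluster differed by -0.837 points (63.2% ± 1.69 against 64.0% ± 0.928, SD, n = 3, exact permutation p = 0.7). The first chr7 cluster was 0.930 points higher (81.5% ± 1.499 against 80.6% ± 0.597, exact permutation p = 0.5, n = 3) and the second 1.29 points higher (57.8% ± 0.315 against 56.5% ± 2.01, exact permutation p = 0.4, n = 3). The pool was 0.674 points higher (SE 0.462, exact permutation p = 0.2), and adjusted p over the 6 tests ran from 0.4 to 0.7. With Chd8+/- replicate 3 left out, Chd8+/- minus WT came to 0.0868 points in the first chr7 cluster, 1.18 in the second, -1.17 in the chr2 cluster, -0.853 in the chr9 cluster and 0.325 in the pool. The comparison CpGs were 0.710 to 0.994 points higher in Chd8+/- by chromosome, and between -0.0734 and 0.287 points without Chd8+/- replicate 3. Against these, the chr2 cluster stood at -1.72 points (SE 0.582, exact permutation p = 0.1, adjusted p = 0.3), and without Chd8+/- replicate 3 at -1.21 points. The sign of the chr2 and chr9 differences between the genotypes was not the same under all treatments of the data, as given with the alternatives. Relative to the comparison CpGs, it was the chr7 and pooled differences whose sign changed.

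**Figure D5:**
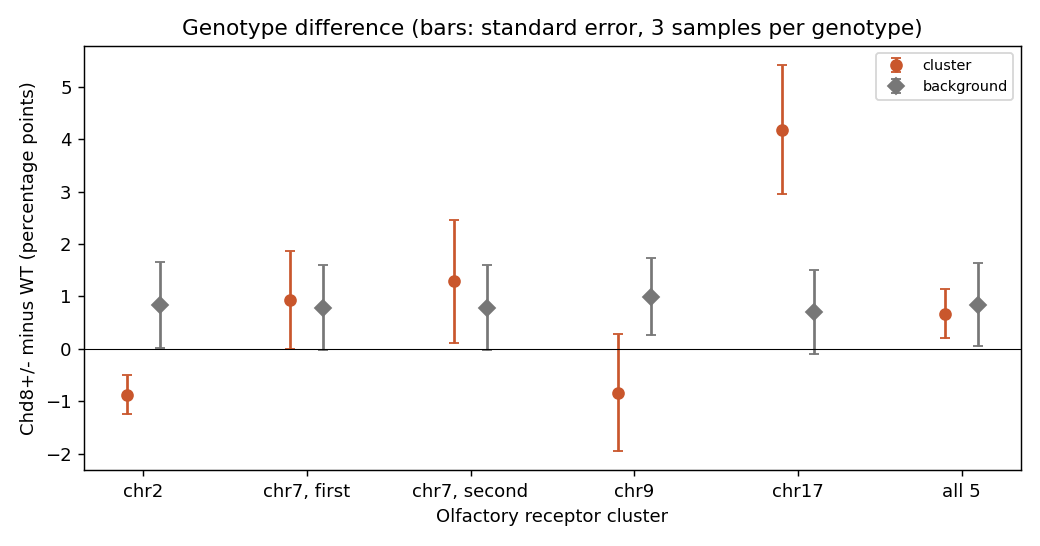
Difference in mean methylation, Chd8+/- minus WT, in percentage points for each cluster, the pool and their comparison CpGs (background in the legend), with bars of 1 standard error (3 samples per genotype). The chr17 cluster stands at 4.19 points, while the comparison CpGs sit between 0.710 and 0.994.

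Smaller stretches were tested within the fit over all autosomal windows of 100 kb with at least 10 covered CpGs in every sample. By limma, 0 of 39 windows inside the clusters passed an adjusted p of 0.05, as did 0 of all 14834 windows (0% called), and the lowest adjusted p was 0.999. At an unadjusted p under 0.05 there were 5 of 39 windows (12.8%), against 3.44% of all windows. Of these 5, 3 were higher in Chd8+/-, against 420 of the 511 among all windows. The count of 5 became 3 (7.69%, against 2.97% of all windows) with the mean of each sample subtracted. It was 2 of 33 (6.06% against 3.61%) with windows of 50 kb and 5 of 41 (12.2% against 3.58%) with windows of 250 kb. With at least 5 CpGs it was 9 of 79 (11.4% against 3.75%), and with coverage in all 6 samples 4 of 35 (11.4% against 6.26%). Across all windows the median difference was 0.902 points, and across those of the clusters 0.605 points. Without Chd8+/- replicate 3 these medians were 0.290 and -0.634 points, and with the mean of each sample subtracted -0.0544 and -0.352 points, so the sign of the cluster median rested on that library and on the scaling.

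The window of the smallest p was chr17:38300001-38400000, with 14 to 16 CpGs. It stood at 60.6%, 58.5% and 68.2% in WT and at 76.1%, 73.8% and 73.8% in Chd8+/-, without overlap, a difference of 12.1 points. By limma the SE was 2.74 points, and the adjusted p was 0.999 for an unadjusted p of 0.00233. Without its CpG of the smallest p, described below, the window differed by 7.71 points, and the groups still did not overlap. In the chr2 cluster, chr2:87300001-87400000 (17 to 25 CpGs) stood at 48.2%, 52.7% and 55.6% in WT and at 40.0%, 41.9% and 48.2% in Chd8+/-, with the highest Chd8+/- value just under the lowest WT value. Its limma p was 0.0156. This window holds the chr2 CpGs of the class of 11 to 20. Over CpGs covered in all 6 samples its difference was 1.43 in place of -8.83 points.

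In the first chr7 cluster, chr7:104100001-104200000 stood at 92.9%, 97.8% and 91.3% in WT and at 86.8%, 86.7% and 84.99% in Chd8+/-. Its limma p was 0.00775. Over CpGs covered in all 6 samples its difference was -3.74 in place of -7.84 points. In the second, chr7:106600001-106700000 stood at 83.3%, 83.5% and 85.6% in WT and at 87.9%, 90.7% and 88.9% in Chd8+/-. Its limma p was 0.0263. Neither pair of groups overlapped. In the chr9 cluster the smallest p was 0.0881, at chr9:40100001-40200000, where Chd8+/- replicate 1 at 41.3% lay above WT replicate 3 at 39.9%. The limma adjusted p of each of these windows was 0.999.

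Single CpGs were tested by edgeR's quasi-likelihood method on methylated and unmethylated read counts. The test could be made for 1214 of the 1442 cluster CpGs, the others being fully methylated or fully unmethylated in every sample. None of the 1214, and 0 of 609673 autosomal CpGs (0% called), passed an adjusted p of 0.05, and limma also called 0. At an unadjusted p under 0.05 edgeR had 44 of 1214 (3.62%), against 3.33% of all CpGs tested, and limma 66 (5.44%) against 5.11%. The cluster CpGs were thus near the background share. Higher in Chd8+/- were 19 of the 44, against 11789 of the 20296 autosomal CpGs with an unadjusted edgeR p under 0.05. By cluster the edgeR counts were 9 of 263 for chr2, 7 of 247 and 6 of 330 for the chr7 clusters, 13 of 246 for chr9 and 9 of 128 for chr17.

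The CpG of the smallest p lay at position 38306919 of chromosome 17. It was at 0, 4.55% and 40.7% in WT (0 of 16 reads allows up to 18.8%) and at 85.7%, 100% and 90.9% in Chd8+/-, over 16 to 44 reads, without overlap. By edgeR its p was 0.000165 and its adjusted p 0.951. This CpG, with 6 listed CpGs in its 500 bp, lies inside the chr17 window of the smallest p. In the same cluster the lowest p in the other direction was at position 37767467, where WT samples averaged 97.8% ± 2.87 and Chd8+/- samples 87.0% ± 8.32 (SD over 3 samples, each with 100 to 189 reads). The 8 other CpGs that had the smallest p of a cluster and direction had edgeR p from 0.00333 to 0.0246 and the same adjusted p of 0.951. At position 107190193 of chromosome 7, covered in 2 samples of each genotype, the values were 100% and 100% in WT and 64.0% and 13.8% in Chd8+/-. At position 106808493 of chromosome 7 they were 76.9%, 43.5% and 56.7% in WT and 100% in each Chd8+/- sample, over 10 to 30 reads. At 4 of these 8 CpGs all WT samples were at 0 or at 100%, and at 3 all Chd8+/- samples were, at coverage between 10 and 313 reads.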

How the data were processed

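Genomic DNA of 6 neocortex samples was assayed by RRBS. Bismark 0.20.0, Trim Galore 0.4.4 and SAMtools 1.9 appear in the submitters' processing notes together with the build mm39; their settings are not given here. Each deposited table lists CpG cytosines with a coverage, a count of reads per the file headers, and the percent of reads with cytosine and with thymine, as deposited by the authors. The lowest coverage listed was 10 reads. For 99.96% to 99.97% of cytosines coverage multiplied by percent came within 0.02 of a whole read, and it was rounded.

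The strands of a CpG were added (a cytosine on the reverse strand was moved back by 1 base), and the 5 intervals, the coverage rule and the comparison CpGs were applied as the report gives them. The intervals, members and lists were chosen with earlier results of these data known. Levels and spread were compared with the same sample's comparison CpGs, and CpG number with the rest of the chromosome, by an exact sign-flip permutation test, and genotypes by an exact permutation test of sample means. Each family of 6 (5 clusters and their pool) was adjusted by Benjamini-Hochberg. Single CpGs were tested with edgeR 4.0.16 in R 4.3.3 on methylated and unmethylated counts of all autosomal CpGs (a coverage term per sample, genotype acting on the methylated share), and means of 100 kb windows with limma 3.58.1. Both were tested on simulated data. CpGs at 0% or 100% in every sample were left out of the edgeR fit.

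The rule for named items took all 5 clusters, the CpG of the smallest edgeR p in each direction, the 100 kb window of the smallest limma p, any CpG or window past the threshold, and in each cluster up to 2 windows of 1 kb with at least 3 CpGs and a mean under 20%, those with the most CpGs first. Genes inside the intervals were not analysed here. RefSeq promoters (GRCm38.p6) were matched to receptor genes by gene identifier and serve for sequence content only.

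Alternatives were coverage in all 6 samples, 20 reads, sparse CpGs only, reads as weights, each CpG's own mean removed, windows of 1 kb, a limit on coverage, strands apart, other backgrounds, the replicate block, limma for CpGs, other window sizes and minimums, centred samples, and each sample left out. Density-matched comparison, a summed form of the scatter ratio, the chr17 cluster without its leading window or CpG, and CpG fits restricted to CpGs covered in all samples used (where the block or a left-out Chd8+/- sample could not be fitted otherwise) were added after the data were seen. Other steps ran in Python 3.11.15 with scipy 1.17.1, pandas 2.3.3, matplotlib 3.10.9 and numpy 2.4.6.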

Additional observations from a re-analysis of the deposited data

How the results depend on the processing

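The level of the chr2 cluster and of the first chr7 cluster relative to the comparison CpGs kept its sign and passed under each alternative that used all 6 samples. In the second chr7 cluster it turned from -12.5 to 9.08 points over sparse CpGs, 4.52 over windows of 1 kb and 11.02 with density matched. In the chr9 cluster it was -5.97 points, no longer past the threshold at -0.772 with coverage in all 6 samples, -2.74 at 20 reads, -1.29 over windows and -1.57 against CpGs within 5 Mb, and it turned to 0.592 over sparse CpGs and 5.21 with density matched. The chr17 cluster passed at 9.25 points with coverage in all 6 samples, 12.7 over sparse CpGs, 7.83 with reads as weights, 2.25 with each CpG's own mean removed, 10.1 over windows and 22.5 with density matched. The pool turned from -0.393 to 4.10, 2.94, 9.75, 2.03, 7.19, 1.29 and 13.7 points with coverage in all 6 samples, at 20 reads, over sparse CpGs, with reads as weights, over windows, against CpGs within 5 Mb and with density matched, and passed at -1.10 and -1.22 points with own means removed and against all autosomes. The spread over CpGs turned to -6.00, -11.6 and -5.73 points over sparse CpGs in the second chr7 cluster, the chr17 cluster and the pool, and in the chr17 cluster it was -2.16 with coverage in all 6 samples and 2.09 (exact permutation p = 0.09375, n = 6) at 20 reads. The causes were not tested.

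The genotype difference of the chr17 cluster kept its sign under every alternative run, and no exact permutation p could fall below 0.1. That of the chr2 cluster turned to 0.632, 0.759, 0.105 and 0.235 points, and that of the chr9 cluster to 0.920, 0.355, 0.298 and 0.258 points, with coverage in all 6 samples, over sparse CpGs, with own means removed and over windows. Relative to the comparison CpGs, the first chr7 cluster turned to -0.649, -0.431, -0.210 and -0.199 points over sparse CpGs, with reads as weights, with own means removed and over windows. The second turned to -0.455, -0.0596, -0.190, -0.370 and -0.0485 points at 20 reads, over sparse CpGs, with own means removed, over windows and with density matched, and the pool turned to 0.459 with coverage in all 6 samples. With coverage in all 6 samples the named windows of the chr2 and chr9 clusters turned to 1.43 and 0.199 points. The causes were not tested.

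With a sample left out, or both samples numbered 3, no exact test on levels could reach the threshold, since 5 samples allow p = 0.0625 at best. Levels relative to the comparison CpGs then ran from 9.49 to 10.1 (chr2), 11.3 to 11.5 and -12.9 to -12.1 (chr7), -6.28 to -5.35 (chr9), 2.27 to 3.56 (chr17) and -0.515 to -0.207 points (pool). The spread ran from -4.23 to -3.58, -5.83 to -5.37, 7.75 to 8.11, 5.57 to 5.87, 2.90 to 3.49 and 3.62 to 3.87 points, and log2 of covered CpGs per Mb over the rest of the chromosome from -2.72 to -2.70, -1.97 to -1.95, -1.29 to -1.27, -1.89 to -1.87, -2.11 to -2.09 and -2.02 to -2.00, in the same order. Genotype differences that changed sign ran from -1.67 to 0.0170 points in the chr9 cluster (positive without Chd8+/- replicate 1) and, relative to the comparison CpGs, from -0.119 to 0.284 (negative without WT replicate 2) and -0.603 to 2.21 (negative without WT replicate 1) in the chr7 clusters and -0.384 to 0.522 in the pool (positive without WT replicate 3 or Chd8+/- replicate 3 or both). The scatter ratio of the pool ran from 4.92 to 5.20 and was 5.12, 5.22, 5.83 and 5.24 with coverage in all 6 samples, at 20 reads, for levels from 20% to 80% and in its summed form.

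With the replicate number as a block the chr17 difference of 4.19 points had an exact paired permutation p of 0.25, the smallest that 3 pairs allow, and limma called 0 windows and edgeR 0 CpGs, the latter over CpGs covered in all 6 samples. Deviations from the genotype mean were compared at the 947 cluster CpGs covered in all 6 samples. They correlated at -0.0622, 0.0171 and -0.0200 between samples of the same number. Of the 3 WT samples, 1 correlated best with the Chd8+/- sample of its own number. At these CpGs the pairing thus rests on the number only. The samples numbered 3 did share a higher share of coverage on chromosome X, as given above. Counts of calls in the clusters were 0 under each alternative run. As to depth, a cluster CpG had a median of 33 reads, and the scatter between samples was about 5.09 times that of read counts.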
